A study of Homo sapiens with 2 samples.

Results

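The 4 genes described here are VEGFA, HTATIP2, MXI1 and HBP1, which the study named besides DKK1 and IL8. Their clusters were taken from the deposited table by gene symbol alone, with no measured value involved, and all 4 had clusters. They held 48 of 233546 deposited clusters and were 4 of the 7712 genes with a cluster. Matching by Entrez gene ID in place of the symbol returned the same clusters. The table comes from Flag-RBM47 HITS-CLIP, an assay that fixes RNA to the protein with ultraviolet light, recovers the complex through the Flag tag and reads the RNA pieces by sequencing. The cells, MDA231-BrM2a, derive from the breast cancer line MDA-MB-231, form brain metastases and are non-clonal. A doxycycline-inducible promoter drove the wild-type RBM47 with its Flag tag, and both libraries come from cells kept in 1 ng/ml doxycycline for 3 days, so the protein pulled down was the introduced one. According to the labels there is 1 group of 2 replicates. Neither a control library nor a measure of mRNA abundance was analysed here, so how strongly an mRNA was bound and how abundant it was cannot be told apart.

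RBM47 binds RNA through RNA recognition motifs and is known as a partner of the APOBEC1 editing enzyme. The 3' untranslated region (3'UTR) of an mRNA follows the stop codon and carries elements that decide how long the mRNA lasts and how well it is translated, and AU-rich elements are the best known of them. VEGFA encodes the secreted growth factor that drives the growth of blood vessels, and its mRNA is a textbook example of control through the 3'UTR. HTATIP2, also called TIP30, is known as a suppressor of metastasis and has been tied to nuclear import. MXI1 pairs with MAX and represses genes that MYC activates, by recruiting the SIN3 corepressor. HBP1 is a repressor with an HMG box that binds RB family proteins and restrains TCF factors of the Wnt pathway.

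A tag is 1 unique read and a cluster is a stretch of overlapping tags with evidence in both replicates. Replicate 1 contributed 999047 tags to the table and replicate 2 contributed 3489697, a ratio of 3.49. The median cluster held 2 tags in replicate 1 and 6 in replicate 2. Levels are therefore given as tags per 1000 tags of the replicate, and between genes also per kb of clusters. Unless stated otherwise, a gene's tags are those in its clusters of at least 10 tags, by the deposited total.

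All 4 mRNAs were contacted mainly downstream of the stop codon, and they differed in how many tags they carried. Most tags had the 3'UTR label in each of the 4. The same held for 51.3% of all genes over all deposited clusters, and for 61.7% with clusters of at least 10 tags. The trait is thus common among bound genes. Of the 48 clusters, 28 were labelled 3'UTR, 5 spanned the coding sequence (CDS) and the 3'UTR, 11 lay in the CDS and 4 in introns. They held 1376 tags in all, with a median of 12 tags and a median length of 91.5 nt. At least 10 tags were found in 27 clusters, at least 30 in 12 and at least 100 in 2, both in the VEGFA 3'UTR.

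VEGFA (Entrez gene 7422) carried the most tags of the 4, with 781 in 13 clusters. Its level was 0.163 tags per 1000 in replicate 1 and 0.178 in replicate 2, or 0.171 ± 0.0105 (SD, n = 2). HTATIP2 (Entrez gene 10553) carried 248 tags in 6 clusters, at 0.0531 and 0.0565 tags per 1000 and a mean of 0.0548 ± 0.00241 (SD, n = 2). Both libraries placed HTATIP2 below VEGFA. MXI1 (Entrez gene 4601) carried 138 tags in 5 clusters, at 0.0330 and 0.0304 tags per 1000 and a mean of 0.0317 ± 0.00188 (SD, n = 2). HBP1 (Entrez gene 26959) carried 74 tags in 3 clusters, at 0.0170 and 0.0166 tags per 1000 and a mean of 0.0168 ± 0.00028 (SD, n = 2). HBP1 was the lowest of the 4 in both libraries. Which replicate stood higher in VEGFA and HTATIP2 changed with the library sizes used for scaling.

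The order of the genes stayed the same when levels were set per kb of clusters. VEGFA had 0.0766 tags per 1000 per kb in replicate 1 and 0.0836 in replicate 2, and HTATIP2 had 0.0480 and 0.0511. VEGFA stood above HTATIP2 by a ratio of means of 1.62, with 1.60 within replicate 1 and 1.64 within replicate 2. MXI1 had 0.0421 and 0.0387 tags per 1000 per kb, and HBP1 had 0.0368 and 0.0359. No neighbours in this order overlapped between their replicate ranges, but the last step was small. The ratio of tags per kb of MXI1 over HBP1 was 1.09, with an exact 95% interval of 0.821 to 1.47 that covers counting error only, so these neighbours could not be ordered at this depth. The same ratio was 1.28 for HTATIP2 over MXI1, with an interval of 1.03 to 1.58.

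**Figure D1:**
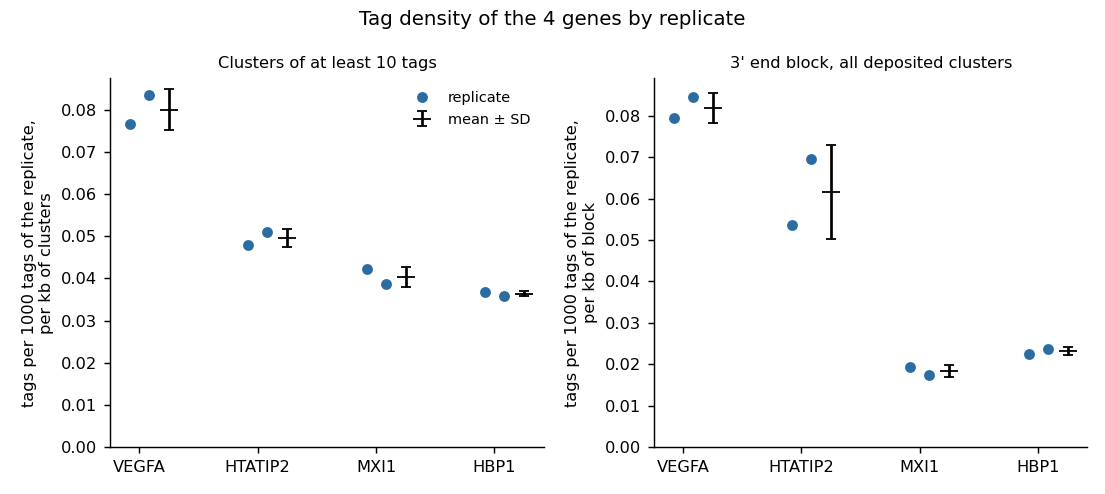
Tag density of each gene in replicates 1 and 2, in tags per 1000 tags of the replicate and per kb, with points for the replicates and bars for mean ± SD (n = 2). Left, per kb of clusters of at least 10 tags, VEGFA lies near 0.0801 and HBP1 near 0.0363. Right, per kb of the 3' end from the stop codon cluster to the last cluster, MXI1 lies below HBP1. The MXI1 span there reaches to a last cluster of 5 tags past a gap of 489 nt.

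Among the 5600 genes with a cluster of at least 10 tags, the median gene held 127 tags in 6 clusters, at 164 tags per kb of clusters. VEGFA ranked 857 by tags and 536 by tags per kb. HTATIP2 ranked 2042 and 1478, and MXI1 2698 and 2424. HBP1 ranked 3421 by tags and 2927 by tags per kb, which places it under the median gene on both measures. Over all deposited clusters it lay above the median gene by tags, with 136 tags against a median of 96. More than 100 tags were found in 3 of the 4 genes, against 39.9 percent of all genes with a deposited cluster. Over all deposited clusters it was 4 of 4, against 49.3% of genes. The study named these genes as bound on the same data, so a share above that of all genes is in part built into the choice. DKK1 had 20391 tags and IL8 had 17178. The study's text gives other tag numbers for both, with IL8 above DKK1. It also counts fewer genes with more than 100 tags than were found here, and the reason was not tested. Per kb of clusters, DKK1 stood at 1.66 and 1.73 tags per 1000 in the replicates and IL8 at 1.90 and 1.88. Their mean levels per kb were 21.1 and 23.6 times that of VEGFA.

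**Figure D2:**
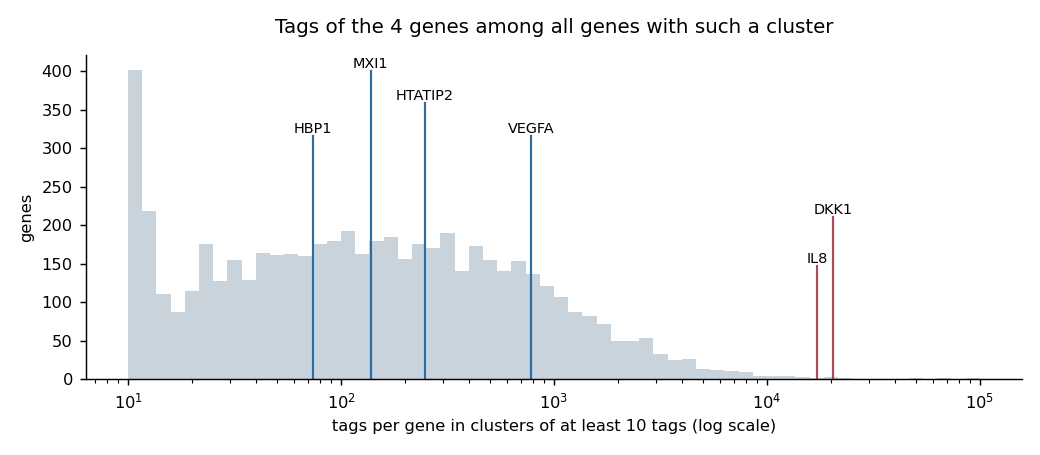
Histogram of tags per gene (log scale) over the 5600 genes with a cluster of at least 10 tags, with vertical lines at the 4 genes and at DKK1 and IL8. HBP1 with 74 tags lies left of the median of 127, and VEGFA with 781 tags lies far left of IL8 and DKK1.

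VEGFA lay on the plus strand of chromosome 6, with its first and last cluster ends at chr6:43853189-43862199 on hg18. The CDS held 3 clusters, of 29, 23 and 11 tags from 5' to 3', with 3, 4 and 3 tags in replicate 1 and 26, 19 and 8 in replicate 2. From the stop codon on, clusters followed each other almost without a break. The 11 clusters from the first one labelled CDS and 3'UTR to the last one in the 3'UTR spanned 1942 nt, covered 92.5% of it and held 723 tags, or 92.0% of all VEGFA tags. Of the 10 gaps between them, 9 were under 50 nt and the widest was 85 nt.

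The largest VEGFA cluster, at chr6:43861225-43861797, was 572 nt long and held 52 tags in replicate 1 and 197 in replicate 2, with a total of 248. It ranked 1270 among all deposited clusters by tags and held 31.8% of the VEGFA tags. It was not the densest. The cluster at chr6:43860540-43860677, which began 283 nt after the start of the stop codon cluster, held 17 and 99 tags over 137 nt and reached 84.7 tags per 100 nt. The largest cluster stood at 43.4 tags per 100 nt. Further dense clusters lay near the 3' end, with 16 and 41 tags over 83 nt at 68.7 tags per 100 nt, and 4 and 16 tags over the last 26 nt at 76.9 tags per 100 nt. The VEGFA 3'UTR clusters thus ranged from 15.9 to 84.7 tags per 100 nt along 1 mRNA end.

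HTATIP2 lay on the plus strand of chromosome 11, at chr11:20345296-20361954. Its tags fell into a distal and a proximal set. Next to the stop codon, 3 clusters adjoined each other over 692 nt and covered 99.1% of it, with 203 tags or 74.4% of all HTATIP2 tags. The largest, at chr11:20361649-20361954, held 16 and 78 tags in the replicates and a total of 94. The cluster before it held 15 and 65 tags, and the stop codon cluster 6 and 25. Both 3'UTR clusters were similar in density, at 33.9 and 30.8 tags per 100 nt.

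Far upstream lay a small set of HTATIP2 clusters with other labels. A CDS cluster there held 2 and 5 tags, and 3 intron clusters held 5 and 3, 1 and 4, and 1 and 4 tags. Between them, a cluster of 129 nt that the deposited table labels 3'UTR held 6 tags in replicate 1 and 4 in replicate 2, at a distance of 15693 nt before the start of the stop codon cluster. It was the 1 3'UTR cluster of the 4 genes that lay upstream of its stop codon cluster, and its 10 tags count among the HTATIP2 3'UTR tags given here. Which transcript gave it that label is not given in the sources used here. The remaining CDS clusters, at 21 and 14 tags, held 5 and 16, and 5 and 9 tags in the replicates. Introns thus held 18 tags, or 6.59% of all HTATIP2 tags, the highest intron share of the 4 genes.

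MXI1 lay on the plus strand of chromosome 10, at chr10:112028939-112036821. Its tags were spread over a 3' end about as long as that of VEGFA but with wide gaps. The 10 clusters from the stop codon on spanned 2112 nt, covered 52.5% of it and held 168 tags, or 92.8% of all MXI1 tags. The widest gap was 489 nt and 4 of the 9 gaps were under 50 nt. The widest lay before the last cluster, of 5 tags, and the next widest was 131 nt. Clusters under 5 tags are absent from the data, and whether the gaps follow the lower tag number of MXI1 was not tested. The largest cluster, at chr10:112035851-112036119, held 15 and 41 tags and the next, at chr10:112035293-112035494, held 11 and 26. No other MXI1 cluster exceeded 19 tags. The densest cluster, at 22.2 tags per 100 nt, was only 27 nt long and rested on 1 and 5 tags.

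HBP1 lay on the plus strand of chromosome 7, at chr7:106598405-106630166, the widest span of the 4 at 31761 nt. It had the fewest tags of the 4, and most of its clusters were small. The largest, at chr7:106629909-106630166, held 14 tags in replicate 1 and 35 in replicate 2, and was the last cluster of the mRNA. The other 2 clusters of at least 10 tags held 1 and 15, and 2 and 8 tags. The remaining 9 clusters held 62 of its 136 tags, so 45.6% of the tags of HBP1 lay below the minimum of 10, against 5 of 786 tags in VEGFA. The lowest kept HBP1 cluster had 10 tags and the highest left out had 9. The 8 clusters from the stop codon on spanned 1073 nt, covered 77.7% of it and held 112 tags.

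**Figure D3:**
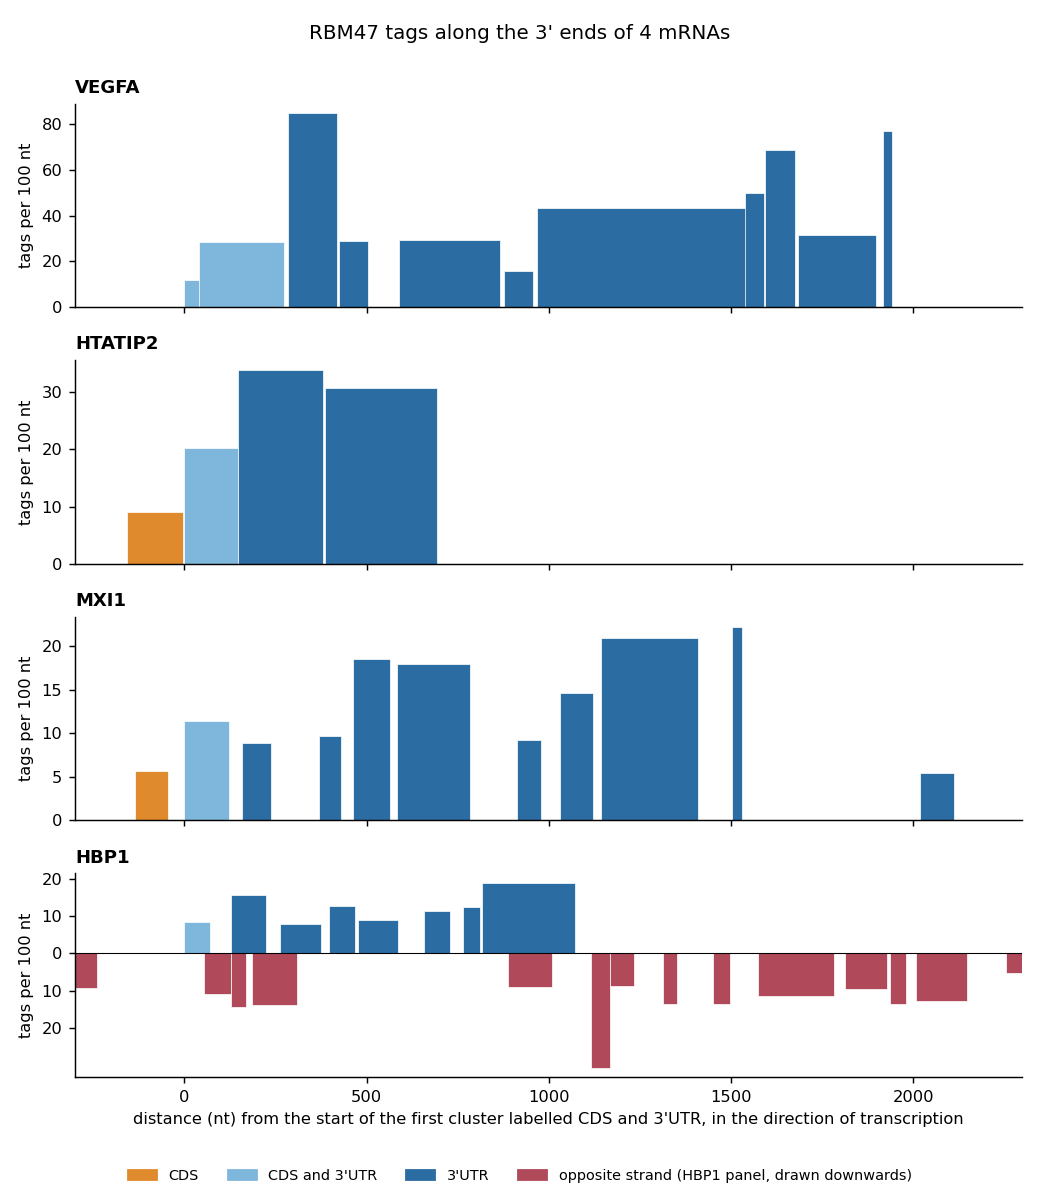
Tags per 100 nt of each cluster against the distance in nt from the start of the first cluster labelled CDS and 3'UTR, with colours for the location label and, for HBP1, opposite strand clusters drawn downwards. Scales differ between panels. VEGFA is covered over 1942 nt with gaps of at most 85 nt, whereas MXI1 has a gap of 489 nt before its last cluster, of 5 tags.

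The largest cluster began near or past the middle of the covered 3' end in each gene. Counted from the start of the stop codon cluster, this was at 968 of 1942 nt in VEGFA, 387 of 692 nt in HTATIP2, 1142 of 2112 nt in MXI1 and 816 of 1073 nt in HBP1. In HTATIP2 and HBP1 it was also the last cluster of the mRNA. How often this position occurs over all genes was not counted. By density the place differed between the genes. The densest 3'UTR cluster began at 283 nt in VEGFA and 146 nt in HTATIP2, but at 1504 nt in MXI1 and 816 nt in HBP1. A density over the whole covered 3' end, gaps included, was computed after the values had been seen. On this measure VEGFA held 0.0794 tags per 1000 per kb in replicate 1 and 0.0846 in replicate 2, and HTATIP2 held 0.0535 and 0.0696. HBP1 held 0.0224 and 0.0238, and MXI1 held 0.0194 and 0.0174. HBP1 stood above MXI1 here, by a ratio of 1.32 with an exact 95% interval of 1.03 to 1.68, the opposite of the order per kb of clusters. The MXI1 span is stretched by its last cluster, of 5 tags, which lies past a gap of 489 nt. The MXI1 cluster before it ended at 1531 of the 2112 nt. The interval takes each span as fixed, and the order without that last cluster was not tested, so these genes are not ordered here. The step that stood out on this scale lay between HTATIP2 and HBP1, at a ratio of 2.81 (2.23 to 3.57).

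The 3'UTR share of tags was close in both replicates. It was 83.4% in replicate 1 and 83.4% in replicate 2 for VEGFA, and 90.9% and 89.6% for MXI1. HTATIP2 had 69.8% and 74.6%, and a mean of 72.2% ± 3.40 (SD, n = 2). HBP1 had 100% in both replicates among its 3 clusters of at least 10 tags. Over all 12 HBP1 clusters it was 76.7% and 78.5%, since its CDS and intron clusters each held under 10 tags. The median gene had 69.8% of its tags in the 3'UTR, and on the deposited totals all 4 genes lay above it at this minimum, with HTATIP2, at 73.8%, closest. Without its upstream cluster counted as 3'UTR, HTATIP2 stood at 69.8%, at the median. With clusters of at least 30 tags the median was 89.7%, and VEGFA at 89.6% and HTATIP2 at 85.2% lay below it. DKK1 and IL8 had 0% under the same label, because their largest clusters were labelled CDS and 3'UTR together.

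**Figure D4:**
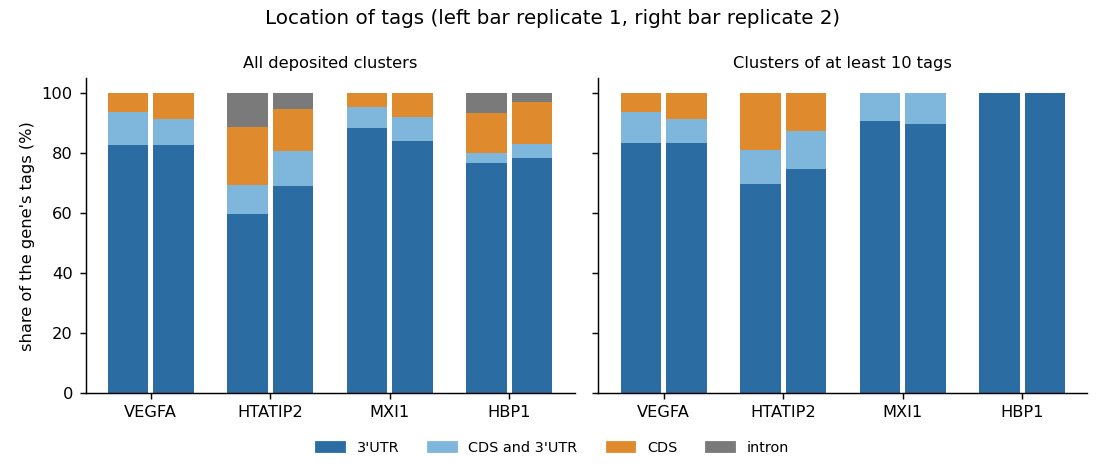
Share of each gene's tags (%) by location label, with replicate 1 as the left bar and replicate 2 as the right bar. The 3'UTR takes the largest part in every bar, from 59.7% in HTATIP2 over all deposited clusters to 100% in HBP1 over clusters of at least 10 tags.

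Tags were also denser in 3'UTR clusters than in CDS clusters of the same gene, over all deposited clusters. VEGFA had 42.8 tags per 100 nt in the 3'UTR and 16.8 in the CDS, a ratio of 3.34 in replicate 1 and 2.40 in replicate 2. HTATIP2 had 27.4 and 11.7 tags per 100 nt, with ratios of 1.66 and 2.64. Which replicate showed the larger ratio thus differed between these genes. MXI1 had 15.6 and 8.18 tags per 100 nt, with ratios of 3.06 and 1.72. HBP1 had 13.9 and 7.48, with ratios of 1.91 and 1.86. The replicate 1 ratios rest on few CDS tags, 10 in VEGFA, 12 in HTATIP2, 2 in MXI1 and 4 in HBP1. All 4 genes had a ratio above 1 in both replicates, as did 88.3% of the 3740 genes with clusters of both labels on the deposited totals, whose median ratio was 1.67. A share of 4 of 4 is near that background and sets these genes apart from no others.

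No gene of the 4 was called as split unequally between the replicates. The replicate 1 share was 20.8% in VEGFA (95% Wilson interval 18.1 to 23.7), 22.5% in HTATIP2 (18.0 to 27.8), 23.6% in MXI1 (18.0 to 30.3) and 21.9% in HBP1 (15.8 to 29.5). Replicate 1 held 22.3% of all tags in the table. After Benjamini-Hochberg adjustment, the exact binomial test called 0 of the 4 genes, 0 had an unadjusted p under 0.05, and the beta-binomial test also called 0. Over all genes the exact test called 1.7 percent.

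Single clusters gave the same count. The exact binomial test called 0 of the 48 clusters at an adjusted p of 0.05, against 0.0111 percent of all clusters, and the beta-binomial test called 0 as well. An unadjusted p under 0.05 was found in 3 clusters by either test, each with a higher share in replicate 1 and an adjusted p of 1. They were the upstream HTATIP2 3'UTR cluster with 6 and 4 tags (exact p = 0.011), the HTATIP2 intron cluster next to it with 5 and 3 tags (exact p = 0.0166), and the VEGFA 3'UTR cluster at chr6:43860680-43860760 with 10 and 13 tags (exact p = 0.022). The median of the 48 clusters was 12 tags in total, and at such counts the test could call only a large difference between the libraries. In 23 of the 48 clusters replicate 1 had at most 2 tags. In HBP1 this held for 11 of 12 clusters.

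**Figure D5:**
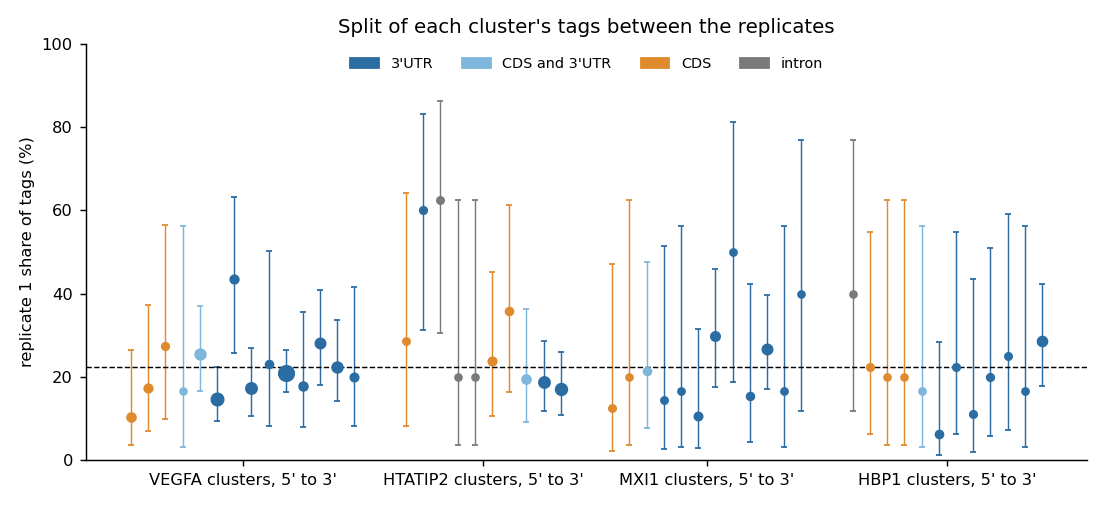
Replicate 1 share of tags (%) in each of the 48 clusters, ordered from 5' to 3' within a gene, with 95% Wilson intervals, point size by tags and colour by location label. The dashed line marks the 22.3% of all tags that came from replicate 1, and the intervals of 3 clusters lie wholly above it and of 1 just below it.

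HBP1 was the 1 gene of the 4 with clusters on the opposite strand within its span, which was noticed after the values had been seen. Within the span of the HBP1 clusters, 36 clusters on the minus strand held 289 tags, with 72 in replicate 1 and 222 in replicate 2, against 136 tags in the HBP1 clusters themselves. That is 0.0721 and 0.0636 tags per 1000 for the opposite strand and 0.0300 and 0.0307 for HBP1. Summed over clusters, the opposite strand was higher in both replicates. Its clusters covered 3022 nt against 1175 nt for those of HBP1, so this order holds for summed tags and not per kb.

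These minus strand clusters were small, with at most 17 tags, and 7 of them held at least 10. The deposited table labels 27 of them as within 10 kb downstream of a gene, 8 as deep intergenic, and 1 as COG5. COG5, a subunit of the conserved oligomeric Golgi complex, is encoded on the minus strand. It had 14 clusters of at least 10 tags, which held 196 tags (45 and 153 in the replicates). Further COG5 clusters lay just past the HBP1 3' end. Minus strand clusters overlapped 4 of the 12 HBP1 clusters, over 265 nt. The table lists clusters by strand, but how well the library method kept strand was not tested. Of 7708 genes on 1 chromosome and strand, 4.50% had any opposite strand cluster within their span and 0.817% had more opposite strand tags than their own. VEGFA, HTATIP2 and MXI1 had 0 opposite strand clusters, 0 clusters of other genes on their own strand within their span, and 0 on that strand in the next 10 kb downstream.

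The 3'UTRs themselves were read from 1 canonical GENCODE transcript per gene, without placing clusters on them, since the clusters are on hg18 and no hg18 sequence was at hand. They are 1928 nt long in VEGFA, 580 nt in HTATIP2, 2381 nt in MXI1 and 1094 nt in HBP1, stop codon included. Tags of 3'UTR clusters per kb of this length were 338 in VEGFA and 316 in HTATIP2, against 67.6 in HBP1 and 52.1 in MXI1. The short HTATIP2 3'UTR thus stood close to that of VEGFA on this scale, although it held fewer tags, and the 10 tags of its upstream cluster are included.

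Uracil made up 29.9% of the VEGFA 3'UTR, 31.6% of HTATIP2, 32.4% of MXI1 and 32.6% of HBP1. The median over 6692 genes with a cluster was 32.5%, and the 4 lay between the 29.1 and the 51.5 percentile. The AU-rich core AUUUA occurred 10 times in VEGFA, a number reached by 10.1% of 1193 3'UTRs of similar length. It occurred 4 times in MXI1 and 2 times in HBP1, numbers reached by 75.5% and 71.4% of 3'UTRs of similar length. It did not occur in HTATIP2, whereas 76.9% of 545 3'UTRs of similar length hold it. The nonamer UUAUUUAUU, which contains AUUUA, occurred 1 time in VEGFA and in none of the other 3, and 10.9% of 3'UTRs as long as that of VEGFA hold it. The run UUUUU, counted with overlaps, occurred 20 times in VEGFA, 17 in MXI1, 3 in HBP1 and 1 in HTATIP2. In the same order, at least as many occurred in 38.0%, 60.9%, 84.8% and 87.2% of 3'UTRs of similar length. Searches covered the mRNA strand only, and a match is a description and not a binding site.

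The nonamer of VEGFA and the longest uracil run of MXI1 are shown because they are the longest such elements counted here. Capitals mark the nonamer, at positions 1737 to 1745 counted from the first base of the stop codon, and the run of 12 uracils, at positions 545 to 556. They are written 5' to 3' from the GENCODE transcripts, and whether a cluster covers them was not tested.
VEGFA: uuguuaucauUUAUUUAUUggugcuacug
MXI1: uuauuauuaUUUUUUUUUUUUgaaaaaagc

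For each gene, the genes most alike in the distribution of tags over 14 location labels were sought among genes whose tags and cluster numbers lay within 2-fold of its own. For VEGFA, 520 genes qualified, and MARCHF5 (listed under a symbol altered to a date), SLC35F2 and CDCP1 differed least, by 1.32%, 1.32% and 1.71% of tags placed elsewhere, against a median of 14.5%. For HTATIP2 they were MACROH2A1 (listed as H2AFY), ABHD3 and MTCH1, at 2.97%, 3.21% and 5.48% and a median of 26.4%. For MXI1 they were SAMTOR (listed as C7orf60), PARD6B and STX2, at 1.59%, 1.59% and 1.91% and a median of 25.3%. For HBP1 they were ACTN4, BTG3 and SLC49A4 (listed as DIRC2), at 2.57%, 2.68% and 3.08% and a median of 24.4%. The nearest gene was least close in HTATIP2, but HBP1 was near it, at 2.57% against 2.97%. Counting error of these differences was not assessed. The measure compares 2 libraries summed over location labels and says nothing of the place within a 3'UTR.

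The pathways of the 4 genes were described by lists of genes. The VEGF list includes VEGFA itself, and the MAX network list includes MXI1. Of 10 VEGF ligands and receptors, 6 had a cluster and 3 had more than 100 tags. VEGFC, a ligand for the growth of lymphatic vessels, had 6017 tags in 233 clusters, of which 93.5% lay in introns and 5.33% in the 3'UTR. NRP1, a coreceptor for VEGFA, had 1432 tags with 87.9% in the 3'UTR. The 2 ligands thus differed in where their tags lay. Of 10 genes of the hypoxia inducible factor pathway, which drives VEGFA transcription, 6 had a cluster and 3 had more than 100 tags, led by the factor subunit HIF1A with 1597 tags and the oxygen sensor EGLN1 with 418.

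Of 12 genes of the MAX network, to which MXI1 belongs, 7 had a cluster and 4 had more than 100 tags. MGA, a large MAX partner, had 1049 tags and MXD1, a repressor related to MXI1, had 912, while MXI1 came after them and MYC with 138. Of 15 genes of the SIN3 complex, 14 had a cluster and 4 had more than 100 tags, led by the subunit SUDS3 with 382 and the deacetylase HDAC2 with 214.

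Of 8 TCF and LEF factors, their coactivator CTNNB1 and RB family genes, tied to HBP1, 5 had a cluster and 3 had more than 100 tags, led by CTNNB1 with 1070 and RB1 with 152. Of 17 nuclear import receptors, tied to HTATIP2, 16 had a cluster and 10 had more than 100 tags, led by IPO7 with 2572 and TNPO1 with 2307. Among listed genes with a cluster, the share past 100 tags ran from 28.6% in the SIN3 complex to 62.5% in the import receptors, beside 39.9 percent over all genes with a cluster. It was 50% for the VEGF and hypoxia lists, 57.1% for the MAX network and 60% for the TCF and RB list, and no difference between lists was tested. The VEGF and MAX shares count VEGFA and MXI1, which the study named as bound on the same data, so they are in part built in. Median tags per kb of clusters ran from 132 in the SIN3 complex to 193 in the MAX network, beside 164 over all genes.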

How the data were processed

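HITS-CLIP of Flag-RBM47 was analysed in 2 replicates of 1 group. The authors collapsed reads to unique reads by degenerate barcodes and clustered them. Per the submitters' processing notes, Novoalign and hg18 were used. Each deposited row gives counts of tags for a cluster, by replicate and in total, with a location label and gene. Every deposited cluster held at least 1 tag per replicate and at least 5 in total, so column sums are not library depths. The total fell 1 tag short of the replicate sum in 8 of the 48 clusters described. Whether coordinates start at 0 or 1 is not given in the sources used here.

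With Python 3.11.15, pandas 2.3.3, numpy 2.4.6, scipy 1.17.1 and matplotlib 3.10.9, tags were summed per gene over clusters of at least 10 tags. Replicate splits were tested with two-sided exact binomial tests against the replicate 1 share of all tags, with Benjamini-Hochberg adjustment over all 233546 clusters or 7712 genes at 0.05, and a beta-binomial test was the alternative. On simulated data, 188 of 200 clusters of at least 100 tags changed 4-fold in odds were recovered and 0 unchanged ones called. The simulated counts carried counting error only. Of the 48 clusters described, 2 held at least 100 tags, so this recovery does not apply to the others. Intervals cover counting error only. The exact p-values likewise set each split against counting error around 1 shared replicate 1 share. The labels do not say whether replicates were separate cultures, so a difference between these libraries may be technical. A 3'UTR of similar length had a ratio of shorter to longer of at least 0.8.

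The 4 genes, the lists and the rules were chosen with earlier results of these data known. Named genes were the 4 genes, DKK1 and IL8, the 3 genes most alike in label shares, and the top 2 of each list by tags. MYC and COG5 were named after their values were seen. Alternatives were all deposited clusters, a minimum of 30 tags, replicate sums, each replicate left out, other labels, other lengths, other expected shares and the library sizes stated by the study.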

Additional observations from a re-analysis of the deposited data

How the results depend on the processing

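Of 146 values recomputed under an alternative, 90 moved, mostly by construction, since each alternative sums other clusters or divides by another total. The order VEGFA, HTATIP2, MXI1, HBP1 by tags held under each tag minimum, with summed replicate columns and without either replicate. By tags per kb, MXI1 and HBP1 changed places without replicate 1. No replicate split of these genes or their clusters was called under any expected share, with the beta-binomial test or with clusters of at least 10 tags alone. No paired analysis was possible because the labels form 1 group. Depth limits the small clusters most, and 2 libraries of unequal depth give the only error.

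With all deposited clusters, HTATIP2 had 273 tags in 10 clusters, MXI1 181 in 12 and HBP1 136 in 12. The 3'UTR share became 83.0% in VEGFA, 67.0% in HTATIP2, 85.1% in MXI1 and 77.9% in HBP1. The rank by tags became 1052 for VEGFA, 2362 for HTATIP2, 2949 for MXI1 and 3376 for HBP1, which put HBP1 above the median gene, and the rank by tags per kb 398 for VEGFA, 1379 for HTATIP2 and 3877 for HBP1. The largest cluster held 31.6% of the tags in VEGFA, 30.9% in MXI1 and 36.0% in HBP1.

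With a minimum of 30 tags, VEGFA kept 635 tags in 6 clusters, HTATIP2 203 in 3, MXI1 92 in 2 and HBP1 49 in 1. The 3'UTR share was then 89.6% in VEGFA, 85.2% in HTATIP2 and 100% in MXI1. The rank by tags was 726, 1509, 2074 and 2471 in the same order of genes, and the rank by tags per kb 645 for VEGFA, 1269 for HTATIP2 and 2471 for HBP1. The largest cluster held 39.1%, 46.3%, 60.9% and 100% of the tags.

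Summed replicate columns gave VEGFA a 3'UTR share of 83.4% and HTATIP2 a rank of 2060. Counting every label that includes the 3'UTR gave 91.9% in VEGFA, 85.9% in HTATIP2 and 100% in MXI1. Without division by length, the ranks were 857 for VEGFA, 2042 for HTATIP2 and 3421 for HBP1. With the library sizes stated by the study, the replicate 2 level over that of replicate 1 moved from 1.09 to 0.990 in VEGFA, from 1.06 to 0.965 in HTATIP2, from 0.920 to 0.834 in MXI1 and from 0.977 to 0.886 in HBP1.

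With 1 replicate left out at a time and at least 10 tags required in the other, VEGFA had 141 to 613 tags in 7 to 12 clusters, HTATIP2 31 to 184 in 2 to 4, MXI1 26 to 106 in 2 to 5 and HBP1 14 to 50 in 1 to 2. The lower figures are those of replicate 1 alone. The 3'UTR share ranged from 84.5% to 87.9% in VEGFA, from 77.7% to 100% in HTATIP2 and from 89.6% to 100% in MXI1. The rank by tags ranged from 607 to 809 in VEGFA, 1526 to 1987 in HTATIP2, 1614 to 2570 in MXI1 and 1960 to 3327 in HBP1. The rank by tags per kb ranged from 544 to 805, 1033 to 1790, 1863 to 2901 and 1901 to 2653 in the same order. The largest cluster held 32.1% to 36.9%, 42.4% to 51.6%, 38.7% to 57.7% and 70.0% to 100% of the tags.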
